A study of Mus musculus with 12 samples.

Results

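The C/EBP family was followed through bone marrow-derived basophils (BMBAs) at both stages of maturation and under both cytokines of the study. Its members were taken as the rows of the count table with the symbols Cebpa, Cebpb, Cebpd, Cebpe, Cebpg and Cebpz, which are 6 of the 31301 gene symbols listed. Bone marrow cells of wild-type C57BL/6J mice were kept in culture for 7 days with IL-3 (interleukin-3) at 0.3 ng/mL or with TSLP (thymic stromal lymphopoietin) at 1 µg/mL, so every group was grown in one of these cytokines and none was left without. Within the CD200R3+ c-Kit- gate, sorting then separated immature cells (FcεRIαhi CD49blo, the pre-basophils of the study) from mature cells (FcεRIαlo CD49bhi). With 3 libraries each, the 4 groups were the immature and the mature cells of either culture. The study gives the libraries of a group as separate cultures, and no source used here says whether mice were pooled or whether immature and mature cells came from the same culture.

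C/EBP proteins bind DNA as dimers through a basic region and a leucine zipper (bZIP). C/EBPα, encoded by Cebpa, drives commitment of progenitors to the granulocyte and monocyte lineages and slows their division. C/EBPβ and C/EBPδ rise in many cells on exposure to cytokines or inflammatory signals and act on genes of acute-phase proteins and cytokines. C/EBPε acts late in neutrophil and eosinophil development, where it is needed for the genes of secondary granules. C/EBPγ lacks most of a transactivation domain and pairs with the other members, often as a partner that dampens them. Cebpz is named with the family, yet its product is a nucleolar protein of ribosome assembly without the bZIP fold. In the basophil lineage, C/EBPα is known for its part in the choice between basophils and mast cells.

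All 6 genes lie at annotated loci of the GRCm38 assembly (GENCODE). Cebpa is a gene of 1 exon on the plus strand of chromosome 7, from 35119293 to 35121928. Cebpg has 2 exons in its longest transcript and lies on the minus strand of chromosome 7, from 35046422 to 35056573, with 62720 bases between the annotated starts of the neighbours. Cebpb has 1 exon on chromosome 2, plus strand, from 167688915 to 167690418. The longest transcript of Cebpd has 1 exon on chromosome 16, plus strand, from 15887286 to 15891031. Cebpe has 2 exons on chromosome 14, minus strand, from 54710360 to 54712174. Cebpz has 16 exons in its longest transcript on chromosome 17, minus strand, from 78919006 to 78937066.

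Exact 50-base stretches were not shared between any pair of members. Several loci share sequence with a gene on the opposite strand, and whether reads were counted by strand is not given in the sources used here. Of the 50-base stretches of Cebpb, 18.1% were also found, in reverse, in Tmem189. For Cebpd, 13.7% were shared in this way with Spidr. For Cebpz, 0.809% were shared with Cebpzos on the opposite strand and 1.66% with the annotated transcript AC118632.1 on its own strand.

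RefSeq upstream sequences were held for 3 of the 6 members, and they are shown because Cebpb moved with stage and cytokine while the neighbours Cebpa and Cebpg were called in no comparison of the edgeR fit. Each run is the 250 bases before the annotated RefSeq start (GRCm38.p6), at chr7:35119043-35119292 (plus strand) for Cebpa, chr2:167688665-167688914 (plus strand) for Cebpb and chr7:35056567-35056816 (minus strand) for Cebpg. Capitals mark the letters TTGCG (the C/EBP core), TGACG (the CREB/ATF core), TATAAA (the TATA box) and CCAAT, searched on both strands, so that CGTCA and ATTGG are TGACG and CCAAT read in reverse.
Cebpa: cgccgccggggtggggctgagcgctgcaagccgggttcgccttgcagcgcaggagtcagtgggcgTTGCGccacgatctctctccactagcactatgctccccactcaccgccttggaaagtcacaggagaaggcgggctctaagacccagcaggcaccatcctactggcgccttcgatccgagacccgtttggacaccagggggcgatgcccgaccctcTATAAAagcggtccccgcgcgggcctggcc
Cebpb: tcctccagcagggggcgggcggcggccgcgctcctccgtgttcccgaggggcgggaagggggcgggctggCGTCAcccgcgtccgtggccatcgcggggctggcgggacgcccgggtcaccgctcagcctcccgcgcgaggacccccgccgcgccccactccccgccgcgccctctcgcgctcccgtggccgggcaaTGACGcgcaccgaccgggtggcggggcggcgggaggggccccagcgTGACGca
Cebpg: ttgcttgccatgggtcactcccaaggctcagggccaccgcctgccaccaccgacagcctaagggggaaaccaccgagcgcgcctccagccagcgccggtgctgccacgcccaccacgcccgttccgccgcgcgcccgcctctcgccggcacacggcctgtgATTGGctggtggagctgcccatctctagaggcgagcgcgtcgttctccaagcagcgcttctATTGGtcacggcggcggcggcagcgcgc

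The stretch before Cebpa held TTGCG with its first base 185 bases before the start and TATAAA 30 bases before it, and none of the marked letters overlapped. TTGCG was found in 17.4% and TATAAA in 13.6% of 32851 promoter windows, each running from 250 bases before to 50 after a start. The stretch before Cebpb held TGACG 3 times, at 180, 53 and 7 bases before the start, and 20.8% of windows held it at least once. The stretch before Cebpg held CCAAT in reverse at 89 and 28 bases before the start, against 37.4% of windows with a match. G and C made up 66.4% of the Cebpa stretch, 81.6% of the Cebpb stretch and 70.8% of the Cebpg stretch. The median over the 250 bases before the start in all windows was 52.4%. The GC box GGGCGG, found in 35.7% of windows, lay 238, 234, 202, 191 and 30 bases before the start of Cebpb, the first pair overlapping, and is not capitalised. The part of the windows after the start is not printed. It held TATAAA at base 22 for Cebpb and GGGCGG at base 45 for Cebpg. The full C/EBP palindrome TTGCGCAA (0.183% of windows) and the STAT motif TTCNNNGAA (8.3%) were not found in any of the 3. These matches describe the letters only, since no binding was measured.

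Levels are given as CPM, the count of a gene scaled to the library size after TMM normalisation. Library totals ran from 1720065 counts (IL-3 immature 1) to 3685285 (TSLP mature 2). The basophil protease gene Mcpt8 lay between 2166 and 16424 CPM in all 12 libraries, and the stem cell factor receptor gene Kit was at or below 1.46 CPM. Of the 9 mast cell markers, Mcpt1, Tpsab1 and Mrgprb2 were at 0 in every library, and the summed level of the list was 0.34 to 12.1 CPM. A pair of libraries stood apart. IL-3 immature 1 had the smallest total and the lowest levels of Cebpa, Cebpb and Cebpd of its group. TSLP mature 1 held 154 CPM of the neutrophil granule gene Ngp, against 5.11 and 5.23 CPM in the other TSLP mature libraries, and a summed B cell list of 190.2 CPM against 21.6 CPM in the lowest of its group. Ribosomal RNA rows (Rn45s, Rn18s and Rn28s1, which count largely the same reads) took 14.7% to 25.0% of the counts in IL-3 libraries and 17.3% to 40.1% in TSLP libraries. Results that rest on these libraries are given without them below.

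Levels were first compared between members within each group, as CPM per kilobase of the longest transcript. Cebpa was the most abundant member in all 12 libraries. With IL-3 its level was 126 ± 32.5 CPM per kilobase in immature and 121 ± 14.7 in mature cells, and with TSLP it was 152 ± 2.99 and 154 ± 12.2 (SD, n = 3). Cebpb followed in every group, with 28.3 ± 9.21, 64.2 ± 7.74, 51.9 ± 2.79 and 108 ± 17.4 CPM per kilobase in the same order of groups, and its range never met that of Cebpa. Behind them the order changed with the group. In IL-3 immature cells Cebpg (13.5 CPM per kilobase) and Cebpz (12.2) came next with overlapping ranges, and Cebpd (4.60) lay below both. In TSLP mature cells Cebpd (21.1 CPM per kilobase) followed them, above Cebpg (10.3) and Cebpz (6.41), and the 3 ranges did not overlap. Cebpd and Cebpg overlapped in IL-3 mature cells (12.3 and 12.1 CPM per kilobase), and Cebpg, Cebpd and Cebpz formed an overlapping run in TSLP immature cells. Cebpe was last in every group. This order rests on the division by length, and whether counts scale with length in these libraries was not tested. In CPM without it, Cebpb in IL-3 immature cells (26.7 to 52.0) lay below Cebpg (56.8 to 69.4) and overlapped Cebpz (41.1 to 57.7).

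**Figure D1:**
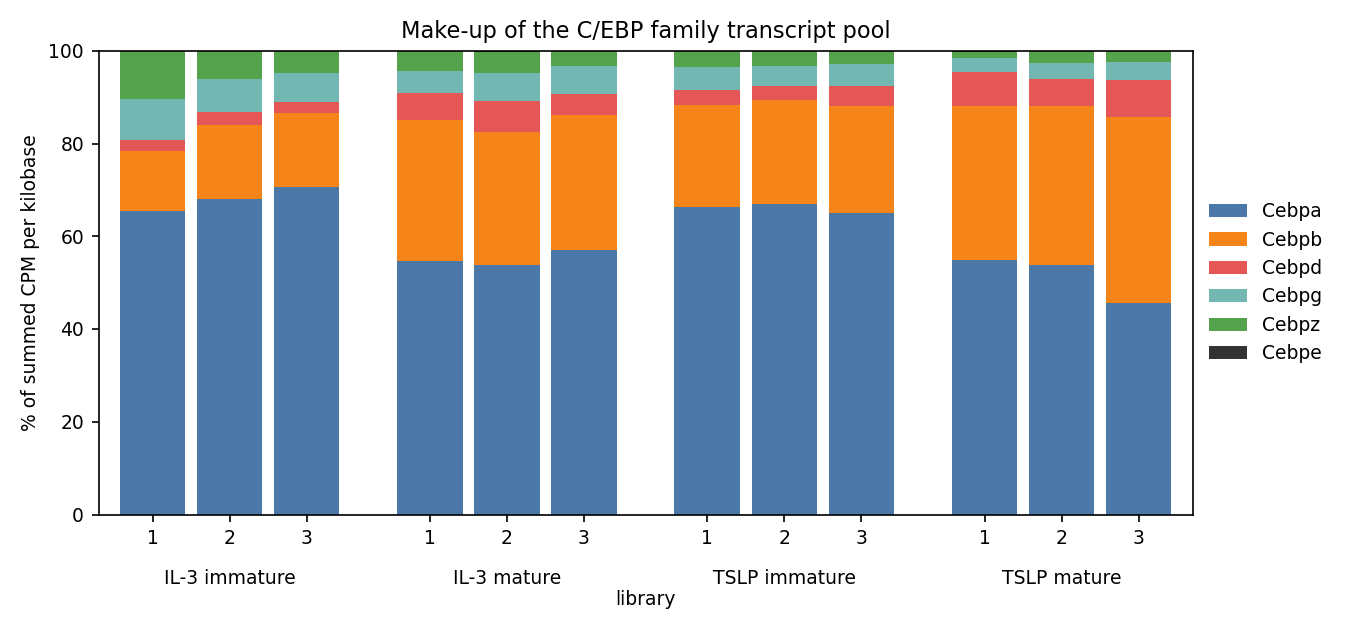
Share of each C/EBP member in the family's summed level, in percent of CPM per kilobase of the longest transcript, for each of the 12 libraries (one stacked bar each). Cebpa made up 65.0% to 70.6% of the pool in the 6 immature libraries and 45.7% to 57.1% in the 6 mature libraries, and Cebpb took 12.9% to 23.0% and 28.7% to 40.1%.

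The make-up of the family's transcript pool therefore differed between stages in both cultures. The share of Cebpa in the summed per-kilobase level was 68.0% ± 2.60 in immature and 55.2% ± 1.75 in mature cells with IL-3, and 66.1% ± 0.956 and 51.5% ± 5.09 with TSLP (SD, n = 3). The share of Cebpb was 15.1% ± 1.83 and 29.4% ± 0.961 in IL-3 cells, and 22.5% ± 0.494 and 35.8% ± 3.74 in TSLP cells, immature before mature. Cebpd held 2.50% and 5.69% of the pool in IL-3 cells and 3.52% and 7.00% in TSLP cells. RefSeq gives the single exon of Cebpd as 2260 bases in place of the 3746 bases used here. With that length the shares of Cebpd became 4.07% and 9.08% with IL-3 and 5.71% and 11.1% with TSLP, immature before mature. Its mean then lay above that of Cebpg in IL-3 mature (20.4 against 12.1 CPM per kilobase) and in TSLP immature cells (13.5 against 10.8). The rank of Cebpd and the size of its per-kilobase ratios therefore depend on the length used. The shares and the size of the per-kilobase ratios of the other members rest on the division by length as well. These shares describe abundance, and the tests of the shifts are those of the paralogue ratios given further on.

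Cebpa did not pass the test in any comparison. Its level in the IL-3 immature libraries was 235, 361 and 398 CPM, and in the IL-3 mature libraries 329.8, 273 and 347 CPM. The TSLP immature libraries held 393, 399 and 409 CPM, and the TSLP mature libraries 441, 391 and 381 CPM. The ranges of immature and mature cells overlapped in both cultures. Between stages the log2 fold change (immature against mature) was 0.07 ± 0.195 (SE, adjusted p = 0.802, edgeR) in IL-3 cells, with a 95% interval of -0.35 to 0.48. In TSLP cells it was -0.02 ± 0.194 (adjusted p = 0.967, 95% interval -0.43 to 0.40, edgeR). The 3 TSLP mature libraries all lay above the 3 IL-3 mature ones, as in 38.6% of all genes tested in that comparison, and the log2 difference of 0.35 ± 0.195 missed the threshold (adjusted p = 0.203). In immature cells the TSLP against IL-3 difference was 0.27 ± 0.195 (adjusted p = 0.392) and fell to 0.06 without IL-3 immature 1.

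**Figure D2:**
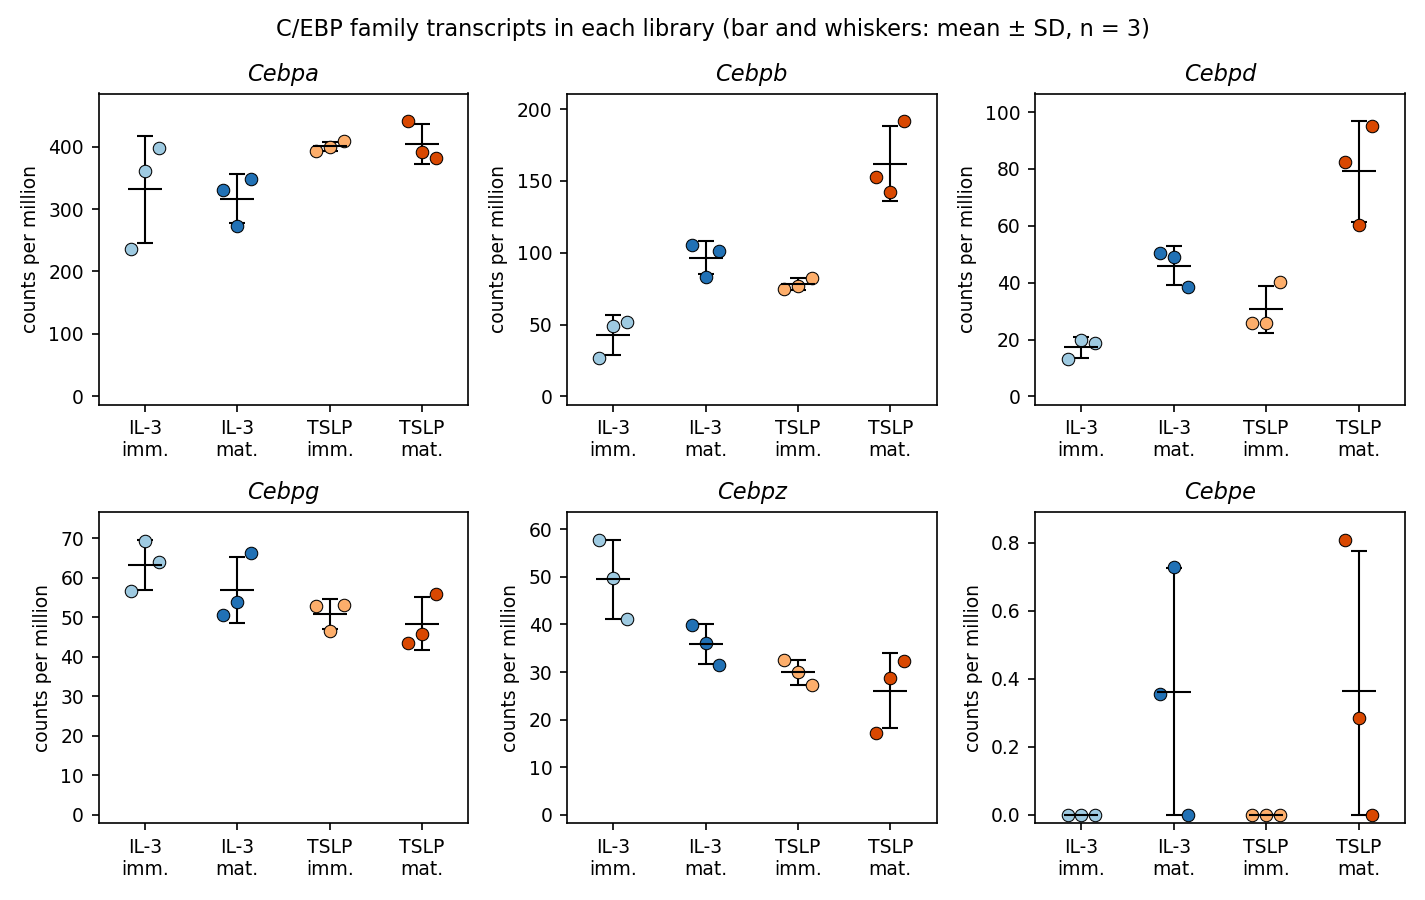
Level of each C/EBP transcript in CPM (TMM-normalised) in the 4 groups, with 1 point per library, and the mean ± SD (n = 3) as bar and whiskers; each panel has its own linear axis. Cebpb ranged from 26.7 to 52.0 CPM in IL-3 immature and from 142 to 192 CPM in TSLP mature libraries, while Cebpa and Cebpg overlapped between stages.

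The study's first axis is maturation, and along it Cebpb and Cebpd were both higher in mature than in immature cells, in both cultures. With IL-3, Cebpb was at 26.7, 49.1 and 52.0 CPM in the immature libraries and at 105, 83.4 and 101 CPM in the mature ones. In TSLP cultures it was at 74.6, 77.0 and 82.7 CPM in immature and at 152, 142 and 192 CPM in mature libraries. No immature library reached a mature library of the same culture. Cebpd, the smaller of the pair, was at 13.1, 19.7 and 18.9 CPM in immature and at 50.6, 49.2 and 38.3 CPM in mature libraries with IL-3. In TSLP cultures Cebpd was at 25.9, 25.8 and 40.2 CPM in immature and at 82.3, 60.1 and 95.1 CPM in mature libraries. Here too the stages did not overlap within a culture, a separation shared by 57.8% of all genes tested with IL-3 and 38.3% with TSLP. In these bulk libraries, a larger share of expressing cells and more transcript per cell cannot be told apart.

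In IL-3 cells, 2 of the 5 members tested were called between stages, both lower in immature cells, against 24.1% of all genes tested that were called lower and 46.2% called in either direction. Cebpb was 2.24-fold lower in immature cells (log2 fold change -1.17 ± 0.221, adjusted p = 0.000448, edgeR), and Cebpd 2.64-fold lower (-1.40 ± 0.246, adjusted p = 0.00022). In TSLP cells the same 2 members were called lower, where 12.9% of all genes were called lower and 25.1% in either direction. Cebpb was 2.07-fold lower (-1.05 ± 0.214, adjusted p = 0.00184) and Cebpd 2.58-fold lower (-1.37 ± 0.23, adjusted p = 0.000378). Both calls held in both cultures under all 22 alternatives, over which Cebpb ranged from -1.27 to -0.83 with IL-3 and from -1.07 to -0.86 with TSLP. Since IL-3 against TSLP is a difference of these differences, it was tested as an interaction, and 0 of the 5 members were called, against 4.19% of all genes (2.15% higher and 2.04% lower). The adjusted p (edgeR) of the members ran from 0.735 (Cebpz) to 0.976 (Cebpd) and the smallest unadjusted p was 0.434. The interval of the interaction was -0.53 to 0.76 for Cebpb and -0.66 to 0.72 for Cebpd on the log2 scale.

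Monocyte and macrophage markers moved along the same axis. All 9 monocyte and macrophage markers that could be tested were called lower in IL-3 immature than in IL-3 mature cells, against 24.1% of all genes. The summed level of the 10 in the list was 124 to 141 CPM against 626 to 763 CPM. In TSLP cells the sums were 378 to 439 CPM in immature and 602 to 841 CPM in mature libraries. There 5 markers were called lower and 1 higher in immature cells, against 12.9% and 12.2% of all genes. The sum was carried by Ccr2, Ly6c2, Adgre1 and F13a1. Among the defining markers, Csf1r (4.64 to 40.2 CPM) and Cd14 (at or below 5.67 CPM) were low, and none of the 10 was at 0 throughout a group. The neutrophil list of 14 genes summed to 949 to 1018 CPM in immature and 1236 to 1463 in mature libraries with IL-3. The sum was largely made up by Cxcr2 in the mature libraries (957 ± 49.5 CPM). Of its 13 tested genes, 5 were called lower in IL-3 immature cells and 2, Mpo and Lcn2, higher (median log2 fold change -1.86). Of all genes 24.1% were called lower and 22.1% higher. In TSLP immature cells 9 were called lower and 2 higher, against 12.9% and 12.2% of all genes. Without TSLP mature 1 it was 2 and 2, and 1774 to 3626 of all genes were called over the alternatives. With TSLP the list summed to 668 to 765 CPM in immature libraries and to 1552 CPM in TSLP mature 1, and the other mature libraries (708 and 691 CPM) lay within the immature range. The part of such cells in the levels of Cebpb and Cebpd was not tested.

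The gene opposite Cebpb moved along as well, in part. With IL-3, Tmem189 was at 12.7 ± 3.92 CPM in immature and 20.6 ± 0.18 CPM in mature cells, a log2 fold change of -0.67 ± 0.241 (adjusted p = 0.0322, edgeR). In TSLP cells it was at 27.7 ± 2.09 and 34.5 ± 7.42 CPM, a difference of -0.32 ± 0.214 that missed the threshold (adjusted p = 0.302). Spidr, opposite Cebpd, had no call between stages (adjusted p = 0.866 and 0.541). Its levels stayed between 15.9 and 28.5 CPM in all 12 libraries, where Cebpd ran from 13.1 to 95.1 CPM.

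**Figure D3:**
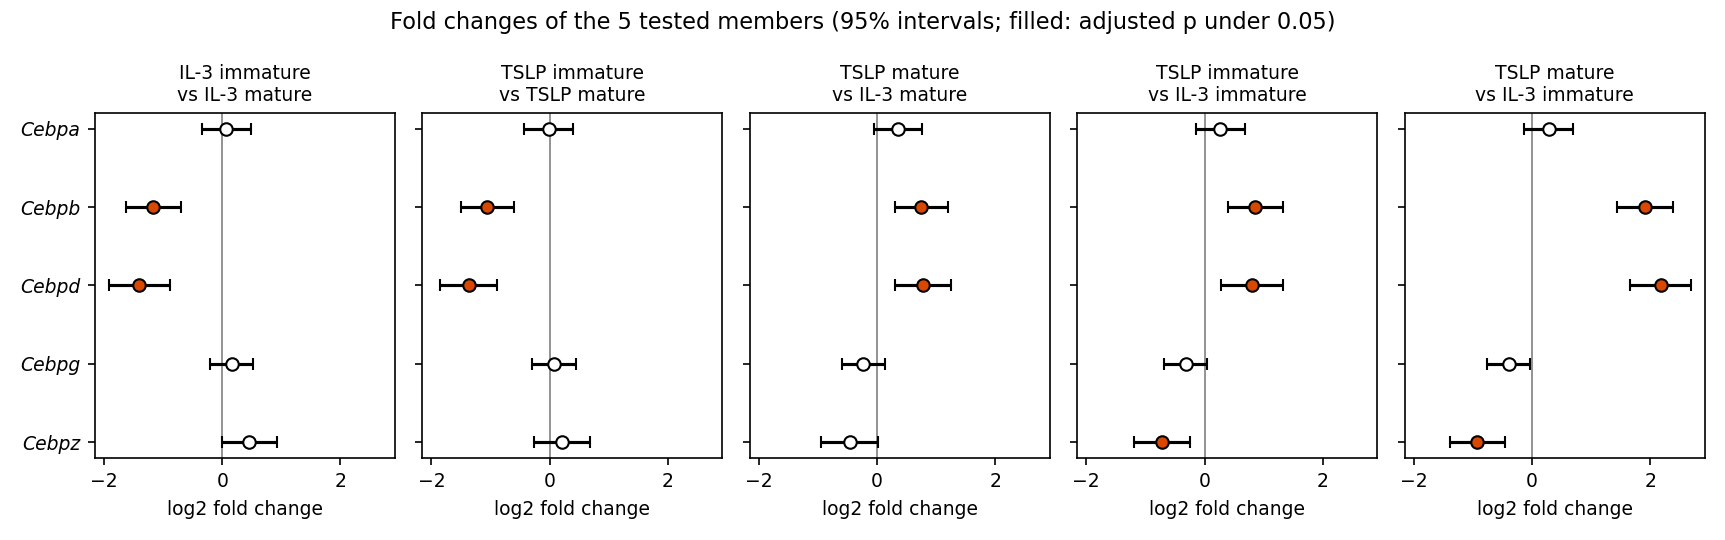
Log2 fold change of the 5 tested C/EBP members (rows) in 5 comparisons (panels), positive where the group named first is higher; points are edgeR estimates, bars their 95% intervals, and filled points have an adjusted p under 0.05. Cebpb and Cebpd were filled in all 5 panels, Cebpz in 2, and Cebpa and Cebpg in 0.

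The second axis is the cytokine at a matched stage. In mature cells 2 of the 5 members tested were called, Cebpb and Cebpd, both higher with TSLP, against 12.4% of all genes called higher and 24.3% called in either direction. Cebpb was 1.68-fold higher (log2 fold change 0.75 ± 0.213, adjusted p = 0.0189, edgeR) and Cebpd 1.71-fold higher (0.78 ± 0.225, adjusted p = 0.0203). The libraries of the cultures did not overlap for either gene, a separation found in 38.6% of all genes tested. Both calls were lost without IL-3 mature 2 (0.59, adjusted p = 0.117, and 0.77, adjusted p = 0.0617), without IL-3 mature 3 (0.72, adjusted p = 0.063, and 0.61, adjusted p = 0.112) or without TSLP mature 3 (0.57, adjusted p = 0.094, and 0.59, adjusted p = 0.0964), giving Cebpb before Cebpd. Tmem189 was also higher with TSLP (0.74 ± 0.221, adjusted p = 0.0234), and Spidr was not called (-0.32 ± 0.221, adjusted p = 0.322). The summed monocyte and macrophage list overlapped between mature cells of the 2 cultures (626 to 763 and 602 to 841 CPM). The summed B cell list did not, at 2.14 to 3.28 CPM with IL-3 and at 190.2, 21.6 and 22.8 CPM with TSLP, and all 3 of its tested genes were called higher with TSLP, also without TSLP mature 1. The neutrophil sum was 1236 to 1463 CPM with IL-3 against 708 and 691 CPM in TSLP mature 2 and 3. The part of such cells in the differences of Cebpb and Cebpd was not tested.

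In immature cells 3 of the 5 members were called between cytokines, where 13.3% of all genes were called. Cebpb was 1.81-fold higher with TSLP (0.86 ± 0.221, adjusted p = 0.0184, edgeR) and Cebpd 1.75-fold higher (0.81 ± 0.248, adjusted p = 0.0417), against 7.38% of all genes called higher. Cebpz was 1.65-fold lower (-0.72 ± 0.221, adjusted p = 0.0419), against 5.9% called lower. The libraries did not overlap for any of the 3 genes, a separation found in 38% of all genes here. Cebpb lost its call without IL-3 immature 1 (0.61, adjusted p = 0.0743) and without any one of the TSLP immature libraries (adjusted p from 0.0529 to 0.076). Cebpd lost its call in 13 of 22 alternatives, among them DESeq2 size factors (0.75, adjusted p = 0.0531) and the loss of any one IL-3 or TSLP immature library, with its lowest value without TSLP immature 3 (0.55, adjusted p = 0.241). Cebpz lost its call in 6 of 22, without IL-3 immature 1, IL-3 immature 2, IL-3 mature 1 or any one TSLP immature library, with its smallest change without IL-3 immature 1 (-0.61, adjusted p = 0.152). The direction held for all 3 throughout. Tmem189 was higher with TSLP in immature cells too (1.09 ± 0.234, adjusted p = 0.0067), and the monocyte and macrophage sum was 378 to 439 CPM with TSLP against 124 to 141 CPM with IL-3. The B cell sum was 35.9 to 42.6 CPM with TSLP against 6.57 to 7.28 CPM with IL-3. Their part in these differences was not tested.

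Both axes together set the groups at the ends of the range furthest apart. The study asked whether TSLP-elicited mature cells resemble IL-3-elicited immature cells, and for Cebpb and Cebpd these 2 groups were the highest and the lowest of the 4. In TSLP mature against IL-3 immature cells, Cebpb was 3.76-fold higher (log2 fold change 1.91 ± 0.222, adjusted p = 3.48e-06, edgeR) and Cebpd 4.52-fold higher (2.18 ± 0.242, adjusted p = 2.2e-06), against 27% of all genes called higher and 50.6% in either direction. Cebpz was 1.89-fold lower (-0.92 ± 0.221, adjusted p = 0.00251), against 23.5% called lower. These 3 calls held under all 22 alternatives. All 3 genes also had fully separated libraries, as did 54.1% of all genes. From low to high, the groups ranked for Cebpb and Cebpd as IL-3 immature, TSLP immature, IL-3 mature and TSLP mature. In the test of any difference among the 4 groups, Cebpb (adjusted p = 1.91e-05), Cebpd (adjusted p = 8.26e-06) and Cebpz (adjusted p = 0.00876) passed, with 60.8% of all genes, and Cebpa (adjusted p = 0.25) and Cebpg (adjusted p = 0.19) did not. The ranges of Cebpb did not overlap between any neighbours in this order, although TSLP immature (up to 82.7 CPM) and IL-3 mature cells (from 83.4 CPM) lay side by side and were not compared by a test. For Cebpd those middle groups overlapped. The comparison shares its libraries with the others, so the values above are not independent of each other.

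Cebpg, the short partner of the family, stayed within a narrow range of 43.4 to 69.4 CPM over the 12 libraries. With IL-3 it was at 56.8, 69.4 and 63.9 CPM in immature and 50.6, 53.9 and 66.3 CPM in mature libraries. With TSLP it was at 52.9, 46.5 and 53.1 CPM in immature and 43.4, 45.7 and 56.0 CPM in mature libraries, overlapping between stages. Immature against mature, the log2 fold change of Cebpg was 0.16 ± 0.174 with IL-3 and 0.07 ± 0.174 with TSLP (adjusted p = 0.473 and 0.796, edgeR), with intervals of -0.21 to 0.53 and -0.29 to 0.44. The cytokine differences were -0.23 in mature and -0.32 in immature cells (adjusted p = 0.355 and 0.241). The largest difference, TSLP mature against IL-3 immature, was -0.39 ± 0.173 with an adjusted p of 0.0685, and it passed the threshold in 16 of 22 alternatives, with adjusted p from 0.0118 to 0.0431 (-0.60, adjusted p = 0.0191, without TSLP mature 3). The median of all genes in this comparison was 0.07 on the log2 scale and moved by -0.12 when Rn45s was left out and by -0.14 with a stricter filter. Without TSLP mature 3 it moved by -0.11.

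Cebpz ran opposite to Cebpb and Cebpd, with its highest levels in IL-3 immature cells. The IL-3 immature libraries held 57.7, 49.7 and 41.1 CPM and the IL-3 mature ones 39.9, 36.1 and 31.6 CPM. The TSLP immature libraries held 32.5, 30.1 and 27.2 CPM and the TSLP mature ones 17.3, 28.7 and 32.3 CPM. All 3 IL-3 immature libraries lay above all others, and the other groups overlapped with their neighbours in rank. Between stages the log2 fold change was 0.46 ± 0.22 in IL-3 cells (adjusted p = 0.101, edgeR) without overlap of the libraries, as in 57.8% of all genes tested. The difference passed the threshold in 5 of 22 alternatives, among them without IL-3 immature 3 (0.63, adjusted p = 0.0441) and without TSLP mature 1 (0.50, adjusted p = 0.0198). In TSLP cells it was 0.20 ± 0.225 (adjusted p = 0.551). Between mature cells of the cultures Cebpz differed by -0.47 ± 0.224 (adjusted p = 0.142). The opposite-strand gene Cebpzos was lower with TSLP in mature (-1.05 ± 0.26, adjusted p = 0.00946) and in immature cells (-0.94 ± 0.274, adjusted p = 0.0326), and had no call between stages (adjusted p = 0.305 and 0.605).

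Cebpe, the late granulocyte member, was all but absent. It had 7 counts in all, 1, 2 and 0 in the IL-3 mature and 3, 1 and 0 in the TSLP mature libraries, and 0 in each of the 6 immature libraries. It did not pass the filter on low counts and was not tested. A count of 0 over the 3 libraries allows a level of up to 0.35 CPM in IL-3 immature and 0.34 CPM in TSLP immature cells, for counting error only, so the difference between stages was not detectable at this depth. The highest count was in TSLP mature 1, the library with 154 CPM of Ngp. Of the secondary granule genes Ltf, Camp and Ngp, levels in the other TSLP mature libraries were at or below 5.23 CPM.

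The paralogues were then compared with each other directly, as the log2 ratio of their levels in the same library, from which the scaling of the library largely drops out. Stage labels were permuted within each cytokine and cytokine labels within each stage, which gives 400 relabellings and a smallest possible p of 0.005. Of the 15 pairs, 8 differed between stages and 10 between cytokines after adjustment over the 30 tests (adjusted p under 0.05, two-sided exact permutation test). Leaving out pairs with Cebpe, whose ratios rest on a prior count, 6 and 8 of 10 pairs passed. By stage each of these 6 set Cebpb or Cebpd against Cebpa, Cebpg or Cebpz. By cytokine the pairs of Cebpa with Cebpg and with Cebpz passed as well. These pairs rest on the same libraries as the edgeR calls and are not separate results. The share of pairs of other genes that would pass was not computed. Of all single genes tested, 57.8% with IL-3 and 38.3% with TSLP were fully separated by stage. The ratio of Cebpa to Cebpb, per kilobase, was 5.05, 4.21 and 4.39 in immature and 1.79, 1.88 and 1.97 in mature libraries with IL-3. In TSLP libraries it was 3.02, 2.97 and 2.83 in immature and 1.66, 1.58 and 1.14 in mature cells. No 2 groups overlapped, and this per-kilobase ratio came closest to parity in TSLP mature cells, a distance that depends on the lengths used. Its log2 difference, immature minus mature, was 1.26 in IL-3 and 1.02 in TSLP cells (mean 1.14, p = 0.005, adjusted p = 0.0115, exact permutation test). TSLP minus IL-3, it was -0.62 in immature and -0.38 in mature cells (mean -0.50, p = 0.005, adjusted p = 0.0115, exact permutation test).

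**Figure D4:**
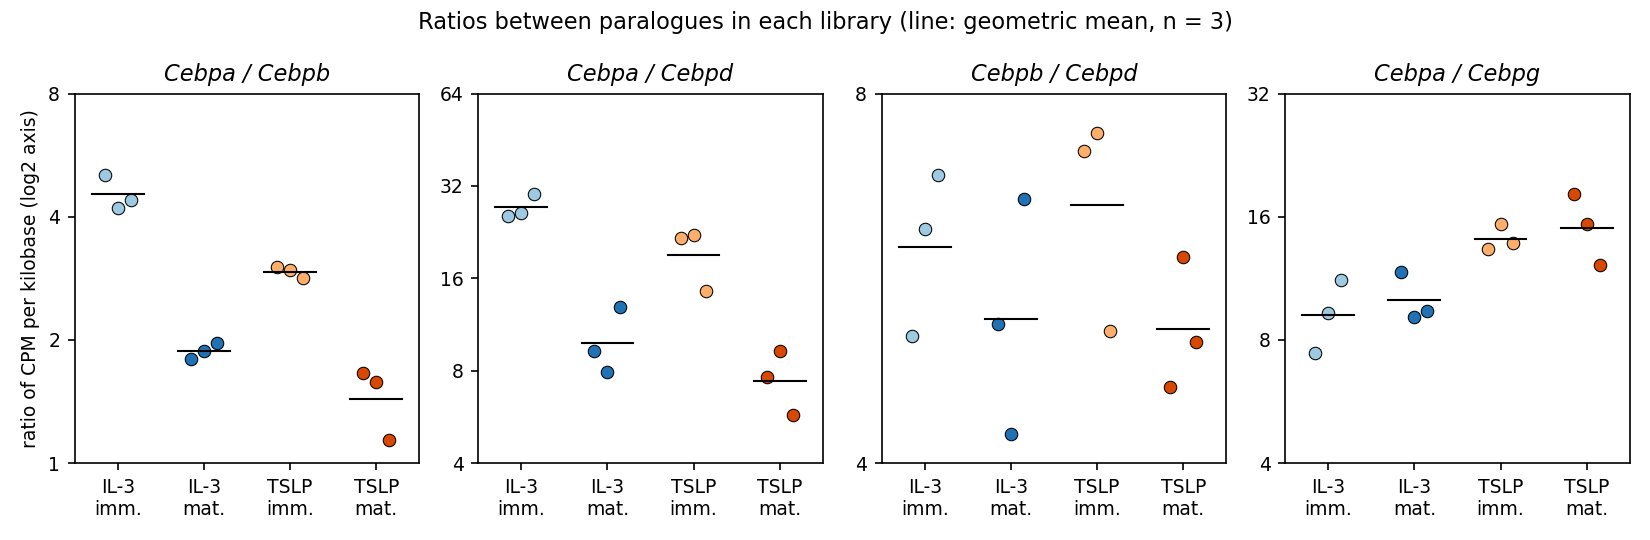
Ratio between pairs of C/EBP members in each library (CPM per kilobase of the longest transcript, log2 axis), with 1 point per library and a line at the geometric mean of each group (n = 3). The Cebpa to Cebpb ratio ran from 2.83 to 5.05 in immature and from 1.14 to 1.97 in mature libraries, while the Cebpb to Cebpd ratio overlapped between all groups.

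The ratio of Cebpa to Cebpd moved along with stage. With IL-3 it was 25.6, 26.2 and 30.1 in immature and 9.30, 7.93 and 12.9 in mature libraries, and with TSLP 21.7, 22.1 and 14.5 and then 7.64, 9.28 and 5.72. Its mean log2 difference between stages was 1.39 (adjusted p = 0.0115, exact permutation test), and between cytokines -0.45 (adjusted p = 0.0353, exact permutation test). Cebpb and Cebpd, by contrast, kept a ratio between 4.22 and 7.43 in all 12 libraries, with overlap between every pair of groups. Its log2 difference was 0.25 between stages (p = 0.12, adjusted p = 0.15) and 0.05 between cytokines (p = 0.71, adjusted p = 0.71) in the exact permutation test, which does not show that the ratio was constant. The Cebpa to Cebpg ratio was higher with TSLP (mean log2 difference 0.60, adjusted p = 0.0115, exact permutation test), at 7.43 to 11.7 in IL-3 and 12.2 to 18.2 in TSLP libraries. Between stages this ratio differed by -0.10 (p = 0.43, adjusted p = 0.445, exact permutation test). The ratio of Cebpd to Cebpg crossed 1, from 0.29, 0.357 and 0.371 in IL-3 immature to 2.38, 1.66 and 2.13 in TSLP mature libraries.

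Over the 12 libraries, log2 CPM of Cebpb and Cebpd had a Pearson r of 0.956, as a description of libraries that share groups and scaling. Cebpa had an r of 0.555 with Cebpb and 0.376 with Cebpd, and Cebpz an r of -0.756 with Cebpb. Among 7549 other genes at a mean level of 10 CPM or more, the 3 most like Cebpb were Cers2, Hexa and Hist1h1c (r = 0.983, 0.983 and 0.979). Those most like Cebpd were Cyp4f18, Dedd2 and Fam174a (0.983, 0.982 and 0.981). Cers2 encodes a ceramide synthase and Hexa a subunit of lysosomal hexosaminidase. For Cebpa the values were lower, with Agpat1 (0.936), Fermt3 (0.891) and Pdcd6 (0.887), and for Cebpg lower still, with Riox2 (0.869), Tmx3 (0.865) and Srsf11 (0.862). Lcorl (0.954), Bclaf1 (0.919) and Cntrl (0.91) were most like Cebpz.

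The other bZIP factors that pair with C/EBP proteins or share their sites were read as a list of 13 genes, of which 10 could be tested. In IL-3 cells 4 of 10 were called lower in immature cells and 0 higher (median log2 fold change -0.86, against -0.06 over all genes), and in TSLP cells 3 lower and 0 higher (-0.53, against -0.03). Of all genes, 24.1% were called lower with IL-3 and 12.9% with TSLP. Nfil3, a repressor that binds related sites, was at 203, 196 and 172 CPM in immature and at 1037, 934 and 934 CPM in mature libraries with IL-3. In TSLP cultures it was at 460, 449 and 501 CPM and at 1299.9, 900.2 and 857 CPM. Its stage difference was -2.35 ± 0.194 in IL-3 and -1.12 ± 0.187 in TSLP cells, and these differed from each other (interaction 1.23 ± 0.263, adjusted p = 0.0132, edgeR). Tef, a clock output factor, was lower in immature cells with IL-3 (-1.37 ± 0.218, adjusted p = 8.59e-05), and at -0.50 ± 0.191 with TSLP (adjusted p = 0.0651). The AP-1 genes Fos and Jun were higher with TSLP in mature cells (0.92 ± 0.29 and 1.27 ± 0.262, adjusted p = 0.0314 and 0.00343). They were the 2 members of the list called there, against 12.4% of all genes called higher. In immature cells Fos, Nfil3 and Tef were called higher with TSLP (1.71, 1.30 and 1.38), against 7.38% of all genes. In TSLP mature against IL-3 immature cells 9 of 10 were higher, against 27% of all genes. Without TSLP mature 1 it was 6. Over the alternatives 4562 to 5805 of all genes were called there in either direction, against 5492 in the main fit.

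Genes known to regulate C/EBP genes or proteins formed a list of 20 symbols, with 16 tested, in which Cop1 and Rfwd2 are names of the same gene. In IL-3 cells 2 were called higher and 6 lower in immature cells (median -0.46), and in TSLP cells 1 higher and 5 lower (median -0.32). Over all genes 22.1% were called higher and 24.1% lower with IL-3, and 12.2% and 12.9% with TSLP. Myb, a factor of dividing progenitors, was at 57.7, 73.4 and 75.5 CPM in immature and at 2.85, 0.729 and 2.71 CPM in mature libraries with IL-3 (5.04 ± 0.34, adjusted p = 9.46e-09, edgeR). In TSLP cells it was at 44.5, 41.0 and 40.2 CPM and at 6.21, 7.38 and 3.08 CPM (2.90 ± 0.282, adjusted p = 1.76e-06), and the interaction was called (-2.14 ± 0.479, adjusted p = 0.0181). Trib1, an adaptor that directs C/EBPα to degradation, was also higher in IL-3 immature cells (0.91). Spi1, the myeloid factor PU.1, was lower in immature cells with IL-3 (-1.17 ± 0.164, adjusted p = 2.42e-05) and TSLP (-0.51 ± 0.161, adjusted p = 0.0276). Id1 and Id2, inhibitors of helix-loop-helix factors, were lower in immature cells with IL-3 (-2.62 and -2.23) and TSLP (-1.52 and -1.29). Between cytokines, 2 of 16 were higher with TSLP in mature cells (Myb and Stat5a) and 2 in immature cells (Spi1 and Id1), and 0 lower in either, against 12.4% of all genes called higher in mature and 7.38% in immature cells. Without TSLP mature 1, with 17 of the list tested, 1 was higher and 1 lower in mature cells, and 2 were higher and 1 lower in immature cells. Over the alternatives 1658 to 3172 of all genes were called in mature and 588 to 2243 in immature cells, against 2634 and 1443 in the main fit.

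**Figure D5:**
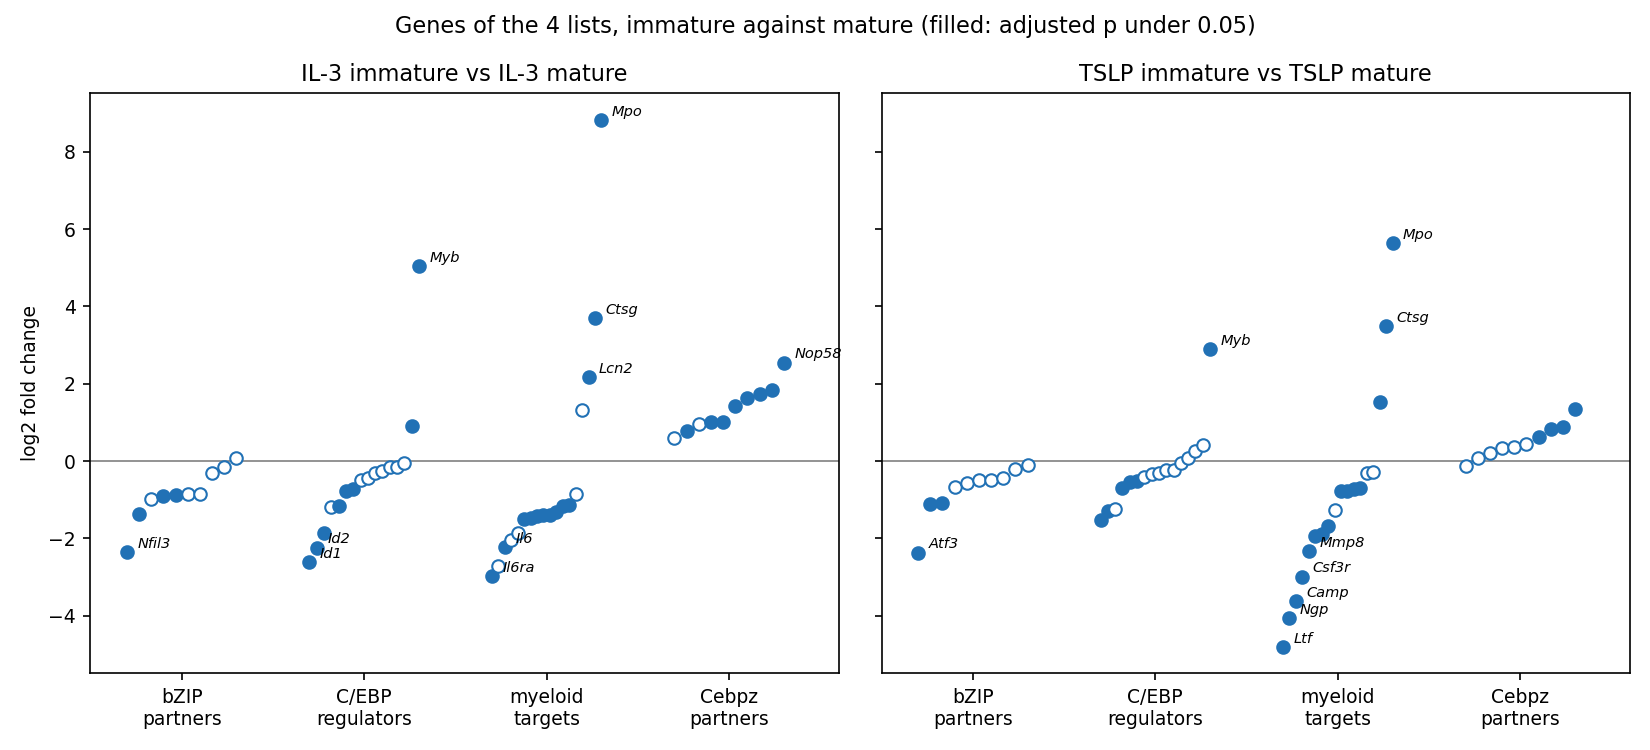
Log2 fold change of immature against mature cells for each tested gene of 4 lists (bZIP partners, C/EBP regulators, myeloid targets, Cebpz partners), in IL-3 (left) and TSLP (right) cultures; filled points have an adjusted p under 0.05 (edgeR), and called genes beyond 2 in either direction are named. Most filled points of the first 3 lists lie below 0, with Mpo (8.82 and 5.65), Ctsg (3.70 and 3.48) and Myb (5.04 and 2.90) far above it, and the filled points of the Cebpz partners lie above 0.

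Known C/EBP targets of myeloid cells moved in both directions. Of 21 listed genes 18 were tested, and 8 of the 21 are also in the neutrophil list and 2 in the monocyte list. In immature cells 3 were higher and 10 lower with IL-3 (median -1.39), and 3 higher and 12 lower with TSLP (median -1.02). Of all genes 22.1% were called higher and 24.1% lower with IL-3, and 12.2% and 12.9% with TSLP, so the share of targets called higher lay near that of all genes. Among those lower with TSLP were the secondary granule genes Ltf, Ngp and Camp, which were high in TSLP mature 1. Without that library the TSLP counts became 3 higher and 6 lower, and the IL-3 counts 4 higher and 14 lower. The IL-3 groups do not hold that library but share a single fit with it. Over the alternatives 1774 to 3626 of all genes were called between TSLP stages and 4179 to 5676 between IL-3 stages, against 2731 and 5020 in the main fit. The higher genes of the main fit were Mpo, Ctsg and Lcn2 in both cultures. Ctsg, the protease cathepsin G, was at 1812, 2181 and 1786 CPM in immature and at 185, 133 and 125 CPM in mature libraries with IL-3, and at 958, 978 and 1003 CPM and 126, 62.4 and 75.1 CPM with TSLP. Mpo, the myeloperoxidase of early granules, was at 651 to 760 CPM in the immature and at most 2.85 CPM in the mature libraries of the IL-3 culture. Il6, a cytokine gene with C/EBP sites, was lower in immature cells with IL-3 (-2.22 ± 0.229, adjusted p = 9.42e-07, edgeR) and TSLP (-0.69 ± 0.217, adjusted p = 0.0271), and these differed (interaction 1.53 ± 0.31, adjusted p = 0.0101). In immature cells Il6 was higher with TSLP (2.13 ± 0.228, adjusted p = 2.22e-05), at 283 to 459.6 CPM against 73.5 to 85.9 CPM. Il1rn, the interleukin-1 receptor antagonist, was higher with TSLP in mature (1.03 ± 0.21, adjusted p = 0.00318) and immature cells (1.40 ± 0.237, adjusted p = 0.00127). In mature cells 1 target was higher and 1 lower with TSLP, against 12.4% and 11.9% of all genes. In immature cells 4 were higher and 1 lower, against 7.38% and 5.9% of all genes. Without TSLP mature 1 the target counts became 1 higher and 5 lower in mature cells, and 4 higher and 4 lower in immature cells. In that fit 2243 of all genes were called between immature cells, in place of 1443. Between mature cells 1658 to 3172 were called over the alternatives, against 2634 in the main fit. Whether C/EBP proteins act on these genes here was not measured.

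The partners of Cebpz in ribosome assembly were all 10 tested. In IL-3 immature cells 8 of 10 were called higher and 0 lower than in mature ones (median 1.22), against 22.1% of all genes called higher, and in TSLP cells 4 higher and 0 lower (median 0.40), against 12.2%. Cebpz itself was called in neither comparison. Nop58, a protein of the box C/D particles that modify ribosomal RNA, was at 72.8 to 187 CPM in the immature and at 16.7 to 25.1 CPM in the mature libraries of the IL-3 culture. Its stage difference was 2.55 ± 0.288 with IL-3 and 1.34 ± 0.272 with TSLP (adjusted p = 2.58e-06 and 0.00184, edgeR). Nop56 (1.84 and 0.87), the methyltransferase gene Fbl (1.63 and 0.63) and the nucleolin gene Ncl (1.01 and 0.84) were called in both. With TSLP, Ncl was lower in mature (-0.56 ± 0.165, adjusted p = 0.0219) and immature cells (-0.74 ± 0.164, adjusted p = 0.00795). In mature cells 4 of 10 were higher with TSLP and 1 was lower, against 12.4% and 11.9% of all genes. Cebpz itself was not called there (-0.47, adjusted p = 0.142, edgeR). In immature cells 0 were higher and 1 lower, against 7.38% and 5.9% of all genes. In TSLP mature against IL-3 immature cells 4 of 10 were lower and 0 higher, against 23.5% and 27% of all genes. Without TSLP mature 1 the stage counts were 10 and 5 higher, and 6 were lower in TSLP mature against IL-3 immature cells. Over the alternatives 4179 to 5676, 1774 to 3626 and 4562 to 5805 of all genes were called in these 3 comparisons, in either direction.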

How the data were processed

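The authors deposited raw read counts per gene for 12 libraries. Per the methods of the study, reads were trimmed with Cutadapt and mapped with Bowtie2 to reference RNA of GRCm38, and the matches per gene were summed. The labels name GRCm39 and mm10 as builds. Use of strand, of molecular identifiers and of reads with several matches is not given in the sources used here. An unnamed row equal to the sum of the others (50% of each column) was left out, and 0 columns were unmapped.

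Counts were tested with edgeR 4.0.16 (quasi-likelihood F test, R 4.3.3). Genes kept by filterByExpr (minimum count 10, total 15) numbered 10861 of 31301, and 5 of the 6 members were among them. Libraries were scaled by TMM, and a single fit held 1 mean per group without a block. p values were adjusted over all 10861 genes by Benjamini-Hochberg, with a threshold of 0.05. CPM was scaled by the effective library size, and log2 CPM used a prior count of 2. Paralogue ratios were tested by exact permutation. With 1720065 to 3685285 counts per library, 1 count was worth 0.27 to 0.485 CPM. Floors are 3 counts over a group. Samples of a group are taken as replicates, so p values measure the spread between these libraries.

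Named genes were the members, the 4 genes of each list with the smallest adjusted p over the 4 groups, the 3 genes most like each member, and genes on the opposite strand. The dose of TSLP is that of the treatment protocol, since another label gives it in another unit. Trib1, Stat5a and the genes named only as called were chosen after their values were seen. The members and lists were chosen with earlier results of these data known. Lists covered bZIP partners, regulators, targets, Cebpz partners, and markers of basophils, mast cells, neutrophils, monocytes, eosinophils, B cells, and T and NK cells. Summed eosinophil markers were higher in mature cells, at 33.4 to 41.2 CPM in immature and 67.4 to 93.0 CPM in mature libraries with IL-3. With TSLP they were at 21.1 to 38.8 and 63.3 to 105 CPM. Summed T and NK cell markers ran from 3.31 to 11.1 CPM over groups. Alternatives were DESeq2 1.42.0, other scalings and filters, a replicate block, fewer groups, and each library left out. Scripts were tested on simulated data, with 67, 67 and 65 genes changed 1.5-fold, 2-fold and 4-fold in IL-3 immature against IL-3 mature cells. At an adjusted p under 0.05 (edgeR), 11.9%, 34.3% and 90.8% of them were recovered, and 0.0583% of unchanged genes were called. Changes of 2-fold or less were often missed there. The simulation left 10296 of 10495 genes unchanged, whereas 46.2% of genes were called between IL-3 stages in the data. The recovered shares are therefore not the power of the tests reported here. A gene not called is still not shown to be unchanged.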

Additional observations from a re-analysis of the deposited data

How the results depend on the processing

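The stage calls of Cebpb and Cebpd and the calls in TSLP mature against IL-3 immature cells held under all 22 alternatives. The number of members called between cytokines ranged over the fits with a library left out from 0 (without IL-3 mature 2, IL-3 mature 3 or TSLP mature 3) to 2 in mature cells, and from 0 (without IL-3 immature 1 or any TSLP immature library) to 3 in immature cells, where it was 1 without IL-3 immature 2 or IL-3 mature 1. Numbers of all called genes moved by more than 1.5 times for TSLP immature against mature (1774 without TSLP immature 1, against 2731), for TSLP against IL-3 in mature cells (1658 without IL-3 mature 2 and 1714 with only those groups, against 2634), in immature cells (588, 710, 738, 939 and 955 without TSLP immature 3, IL-3 immature 1, IL-3 immature 2, TSLP immature 1 and TSLP immature 2, and 2243 without TSLP mature 1, against 1443) and for the interaction (240, 267, 273, 282 and 284 without IL-3 mature 2, IL-3 immature 2, TSLP immature 2, TSLP immature 1 and IL-3 mature 3, and 723 without TSLP mature 1, against 455).

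Changes of sign were limited to values that were never called. For Cebpa between TSLP stages (main value -0.02) they were 0.022 with DESeq2 size factors and with the DESeq2 Wald test, 0.024 with no filter, 0.017 with only those groups, 0.088 with the stricter filter, 0.071 without Rn45s, 0.049 without the 3 ribosomal rows, 0.00015 with TMM on uncalled genes, and 0.16 without both IL-3 immature 1 and TSLP mature 1. The last setting also gave -0.14 for Cebpa in TSLP mature against IL-3 immature cells, where the main value was 0.28 ± 0.195 (adjusted p = 0.239, edgeR). In the interaction it gave -0.16 for Cebpb and -0.080 for Cebpd. The Cebpd interaction was -0.0034 with DESeq2 size factors, -0.021 with no filter and -0.0020 with the DESeq2 Wald test. With a library left out, Cebpa ranged from -0.033 to 0.29 between IL-3 stages, from -0.018 to 0.15 between TSLP stages and from -0.23 to 0.090 in the interaction. The interaction ranged from -0.076 to 0.30 for Cebpb, from -0.17 to 0.18 for Cebpd and from -0.18 to 0.038 for Cebpg.

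By the rule that every pair exceed 0.1, the replicate numbers were not used as pairs in the main fit or the permutation test. The rule does not show that the libraries are unpaired, and correlations over 0.1 were more frequent between same-numbered libraries. Same-numbered libraries had correlated deviations of -0.077 to 0.388, over 0.1 in 7 of 18 pairs, and others -0.305 to 0.272, over 0.1 in 2 of 36. With the replicate block 2, 2, 2, 3, 3 and 0 members were called, as without it, and 5251 genes in place of 5020 between IL-3 stages. Leaving out the ribosomal rows and leaving out both libraries were chosen after seeing the data. The smallest p of the ratio test, 0.005, is set by the number of relabellings. Between 6 and 10 pairs passed by stage and 8 to 10 by cytokine over the alternatives.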
